A study of Arabidopsis thaliana with 12 samples.

Results

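The genes described here have late embryogenesis abundant (LEA) proteins other than dehydrins named in their annotation. They were taken as the loci whose array annotation holds the words "late embryogenesis abundant", leaving out every locus annotated as a dehydrin and 12 named dehydrin and COR15 loci. The rule gave 37 of the 32627 loci on the array, read by 39 of its 37118 transcript features. The annotation calls 24 of them LEA proteins and 8 of them LEA protein-related, gives 3 through an InterPro domain, and names LEA only as the best protein match of the other 2.

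LEA proteins are small, very hydrophilic and mostly unfolded in water, and they build up in seeds late in maturation, before the embryo dries. They are known for protecting enzymes and membranes during water loss, and many of them fold only as water is withdrawn. In vegetative tissue they are usually scarce, and abscisic acid (ABA), drought, salt and cold switch many of them on through ABA-responsive promoter elements bound by bZIP factors such as ABI5 and the ABFs. They fall into families by sequence motif, called here by the Pfam-style names LEA_1 to LEA_5, LEA_18 and SMP (seed maturation protein). The families were assigned from background knowledge and the annotation. They held 3 (LEA_1), 3 (LEA_2), 2 (LEA_3), 13 (LEA_4), 2 (LEA_5), 2 (LEA_18) and 1 (SMP) of the loci, and 11 were given no family.

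RNA came from whole seedlings of Arabidopsis thaliana Col-0, 10 days old, and was read on 12 one-colour arrays. The seedlings were a T-DNA insertion line named gem1, a GEM overexpressor driven by the 35S promoter of a plant virus, or wild type, each with 100 µM ABA for 2 h or with no treatment. Each of these 6 groups had 2 biological replicates, numbered 1 and 2, and the arrays that share a number are called a replicate set here. No mock-treated group is named in the labels, so effects of handling or of the 2 h themselves cannot be told apart from those of ABA, and the 35S promoter drives GEM in nearly all cells rather than in its own.

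The median log2 value of an array was 12.16 to 12.22, and single values ran from 6.99 to 15.95. GEM, a GRAM domain protein of root epidermal cell fate, was read by a pair of features. Feature 1 gave 15.73 to 15.81 in the overexpressor and 14.38 to 14.61 on arrays labelled gem1, against 14.13 to 14.48 in wild type, so the arrays labelled gem1 did not show less of it. Feature 2 gave 11.16 to 11.62 on the arrays labelled gem1, against 9.32 to 9.65 in wild type. In overexpressor replicate 1 it gave 11.98 with ABA and 11.36 without, and in replicate 2 it gave 9.38 and 9.56. The 2 overexpressor replicates thus differed at this feature in both treatments, and the reason was not tested. Where the insertion lies relative to these probes is not stated in the labels, so neither feature checks the gem1 label. Of 5 shoot markers none passed the test after ABA, and of 5 root markers 3 were lower (PHT1;1 by -0.57, SCR by -0.50 and CASP1 by -0.29, log2). Over all loci 5.2% were lower. The mean log2 value of the root list was 14.63 to 14.75 on ABA arrays and 14.99 to 15.11 on untreated arrays, and its part in the LEA results was not tested. In whole seedlings, fewer cells of a type and less RNA per cell cannot be told apart.

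After 2 h of ABA, most of these genes were higher in 10-day-old seedlings. Of the 37 genes, 21 rose and 2 fell when the 6 ABA arrays were set against the 6 untreated arrays as the mean of the 3 genotypes (limma, adjusted p under 0.05). Over all loci 5.6% rose and 5.2% fell in the same contrast. The median log2 difference was 0.68 over the 37 genes and -0.03 over all loci. In 20 of the 37 every ABA array lay above every untreated array, as in 6.14% of all loci, and in 2 every ABA array lay below, as in 6.01%. The 3 LEA_1, both LEA_5 and both LEA_18 genes rose, with 9 of 13 LEA_4, 1 of 3 LEA_2, 1 of 2 LEA_3 and none of the SMP genes. Of the 11 genes with no family, 3 rose and 2 fell. With the replicate number as a block, 22 rose and 2 fell (9.27% and 12.9% of all loci), AT3G22490 being added. Without ABA-treated wild-type replicate 2, and likewise without ABA-treated gem1 replicate 2, 16 of the 37 passed, and 24 and 23 of them with the block kept.

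**Figure D1:**
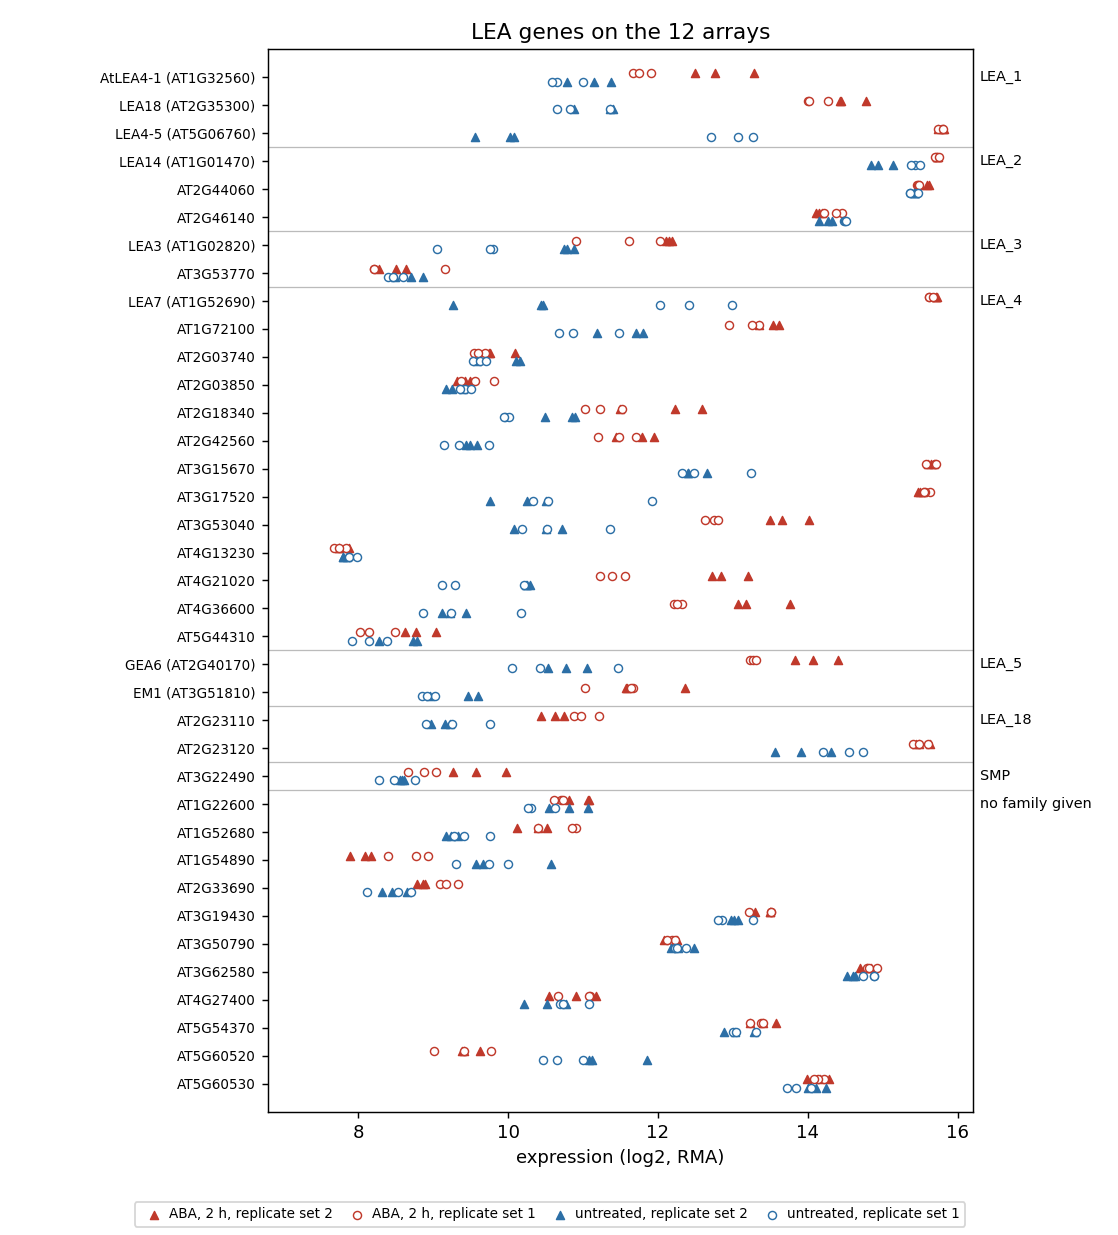
Expression of the 37 genes (log2, RMA) on the 12 arrays, grouped by family, with ABA arrays in red above untreated arrays in blue and replicate set 2 as filled triangles, set 1 as open circles. The ABA arrays of LEA4-5, LEA7, AT3G15670 and AT3G17520 crowd between 15.47 and 15.81, while their untreated arrays spread from 9.27 to 13.27.

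The LEA_4 family, proteins with a repeated short motif that form helices on drying, held 9 of the 21 genes that rose. AT3G17520 (chromosome 3, 5999289 to 6000370, minus strand, by the array annotation, which states no genome build) had 15.47, 15.54 and 15.62 as lowest, median and highest of the ABA arrays, against 9.76, 10.42 and 11.92 of the untreated arrays. Its log2 difference was 4.99 (SE 0.33, 31.8-fold, limma adjusted p = 0.000171). The groups were far apart, and the highest untreated array was gem1 replicate 1. LEA7 (AT1G52690, chromosome 1, 19619745 to 19620844) had 15.61, 15.69 and 15.73 on ABA arrays, against 9.27, 11.24 and 12.98 on untreated arrays, a log2 difference of 4.41 (SE 0.66, 21.2-fold, limma adjusted p = 0.00571). Its untreated arrays differed by more than 3 on the log2 scale and its ABA arrays hardly at all. AT3G15670 (chromosome 3, 5309886 to 5310988) had 15.57, 15.67 and 15.71 on ABA arrays, against 12.32, 12.45 and 13.25 on untreated arrays. Its log2 difference of 3.07 had the smallest adjusted p of the 37 (SE 0.14, 8.38-fold, limma adjusted p = 4.38e-05).

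Other LEA_4 genes rose without reaching the top of the scale. AT4G36600 had 12.22, 12.70 and 13.76 on ABA arrays, against 8.87, 9.23 and 10.17 on untreated arrays (log2 difference 3.46, SE 0.33). AT3G53040 had 12.62, 13.15 and 14.02, against 10.08, 10.51 and 11.35 untreated (2.66, SE 0.34, 6.32-fold). In both genes all ABA arrays were higher than all untreated ones, and the ABA arrays of replicate set 2 were the higher 3 of the 6. AT4G21020 had 11.22, 12.14 and 13.20 on ABA arrays, against 9.11, 10.23 and 10.29 untreated (2.25, SE 0.45), and passed in 9 of the 12 fits that leave out 1 array. AT2G42560 had 11.20, 11.60 and 11.95, against 9.14, 9.46 and 9.74 untreated (2.14, SE 0.15). Neither gene's treatments overlapped, and AT2G42560 also passed as a contrast within each genotype in the fit of all 12 arrays. AT1G72100 had 12.95, 13.35 and 13.62 on ABA arrays, against 10.68, 11.34 and 11.80 untreated (2.06, SE 0.20). AT2G18340 had 11.02, 11.51 and 12.59, against 9.95, 10.26 and 10.89 untreated (1.32, SE 0.32, limma adjusted p = 0.0374). Its lowest ABA array lay just above its highest untreated array, and it passed in 3 of the 12 fits that leave out 1 array each.

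The other 4 LEA_4 genes did not pass. AT2G03740 gave -0.05 (limma adjusted p = 1.00), AT2G03850 0.14 (adjusted p = 0.440), AT5G44310 0.15 (adjusted p = 0.905) and AT4G13230 -0.09 (adjusted p = 0.498), all as log2 differences. AT4G13230 stood at 7.67 to 7.88 on ABA arrays and 7.79 to 7.98 on untreated arrays, near the lowest value on any array, and no background flags were in the values used here. The 95% confidence intervals of the log2 difference were -0.37 to 0.27 for AT2G03740, -0.06 to 0.35 for AT2G03850, -0.37 to 0.66 for AT5G44310 and -0.23 to 0.05 for AT4G13230.

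All 3 genes of LEA_1, a family of short proteins that keep enzymes from clumping as water is lost, rose after ABA. LEA4-5 (AT5G06760, chromosome 5, 2089492 to 2090430), whose protein guards enzymes in drying tests and is known for a part in drought tolerance, had 15.73, 15.79 and 15.81 on ABA arrays, against 9.56, 11.39 and 13.27 untreated. Its log2 difference was 4.33 (SE 0.81, 20.1-fold, limma adjusted p = 0.0141), with an SD of 0.03 among ABA arrays and 1.73 among untreated arrays. LEA18 (AT2G35300, chromosome 2, 14862901 to 14863387) had 14.00, 14.35 and 14.78 on ABA arrays, against 10.65, 11.11 and 11.40 untreated, a log2 difference of 3.25 (SE 0.20, 9.49-fold, limma adjusted p = 0.000126). LEA18 was thus similarly spread in both treatments, unlike LEA4-5. AtLEA4-1 (AT1G32560) had 11.67, 12.20 and 13.28 on ABA arrays, against 10.59, 10.89 and 11.38 untreated (1.39, SE 0.31, limma adjusted p = 0.0277). Its groups did not overlap, and it passed in 4 of the 12 fits that leave out 1 array.

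The LEA_5 family consists of the Em proteins, among the most hydrophilic seed proteins, whose genes are classic targets of ABI5 and mark the end of embryo development. GEA6 (AT2G40170, also known as EM6, chromosome 2, 16779552 to 16780258), needed for normal drying of the seed, had 13.23, 13.57 and 14.40 on ABA arrays, against 10.05, 10.66 and 11.46 untreated. The log2 difference was 2.97 (SE 0.29, 7.82-fold, limma adjusted p = 0.00088). EM1 (AT3G51810, chromosome 3, 19214748 to 19215831) had 11.03, 11.61 and 12.35 on ABA arrays, against 8.85, 8.99 and 9.60 untreated (2.50, SE 0.23, 5.67-fold, limma adjusted p = 0.000769). Both Em genes were higher in 6 of 6 pairs of arrays with the same genotype and replicate number. For both, the highest ABA array was wild-type replicate 2.

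The LEA_18 pair, AT2G23110 and AT2G23120, lies 996 bp apart on the plus strand of chromosome 2, and each is a short gene of unknown role. AT2G23110 had 10.43, 10.81 and 11.21 on ABA arrays, against 8.91, 9.19 and 9.76 untreated (1.60, SE 0.16, limma adjusted p = 0.000902). AT2G23120 had 15.41, 15.48 and 15.63, against 13.57, 14.26 and 14.74 untreated (1.29, SE 0.17, limma adjusted p = 0.00321). Both rose with no overlap between the treatments. The annotation gives each as the best match of the other, so how the signal divides between them is uncertain.

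The LEA_2 proteins differ from the rest in having a stable fold, and 1 of 3 rose. LEA14 (AT1G01470), a small folded protein induced by wounding and stress, had 15.70, 15.73 and 15.76 on ABA arrays, against 14.84, 15.26 and 15.49 untreated (0.52, SE 0.13, 1.44-fold, limma adjusted p = 0.0405). It passed in 3 of the 12 fits that leave out 1 array. AT2G44060 gave 0.11 (95% interval -0.02 to 0.23) and AT2G46140 -0.12 (-0.35 to 0.11), neither past the threshold. AT2G44060 already stood at 15.36 to 15.47 without ABA. In LEA_3, the family of SAG21, LEA3 (AT1G02820) had 10.90, 12.07 and 12.19 on ABA arrays, against 9.05, 10.27 and 10.88 untreated (1.66, SE 0.39, limma adjusted p = 0.0357), and passed in 4 of the 12 fits that leave out 1 array. The other LEA_3 gene, AT3G53770, gave -0.09 (95% interval -0.41 to 0.24). The SMP gene AT3G22490 gave 0.68 (SE 0.23), with limma adjusted p = 0.112, or 0.0296 with the replicate block.

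Of the genes with no family, AT1G54890 and AT5G60520 were the only 2 of the 37 that fell. AT5G60520 (chromosome 5, 24331670 to 24333045) had 9.005, 9.41 and 9.77 on ABA arrays, against 10.46, 11.04 and 11.85 untreated (-1.60, SE 0.24, limma adjusted p = 0.00545). AT1G54890 (chromosome 1, 20463083 to 20464470) had 7.89, 8.28 and 8.93, against 9.30, 9.71 and 10.57 untreated (-1.43, SE 0.27, limma adjusted p = 0.0152). Both were lower in every pair of arrays, and the annotation calls both LEA protein-related with nothing on their role. AT1G52680 rose by 1.17 (SE 0.15, limma adjusted p = 0.00316), AT2G33690 by 0.56 (SE 0.12, adjusted p = 0.0234) and AT3G19430 by 0.42 (SE 0.09, adjusted p = 0.0261). Of the 12 fits that leave out 1 array, AT2G33690 and AT3G19430 passed in 5 each and AT1G54890 in 10. The other 6 (AT1G22600, AT3G50790, AT3G62580, AT4G27400, AT5G54370 and AT5G60530) gave log2 differences from -0.11 to 0.28, none past the threshold. These 11 genes hold 7 of the 8 annotated as LEA protein-related (all but AT3G53770) and both named through a best match.

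**Figure D2:**
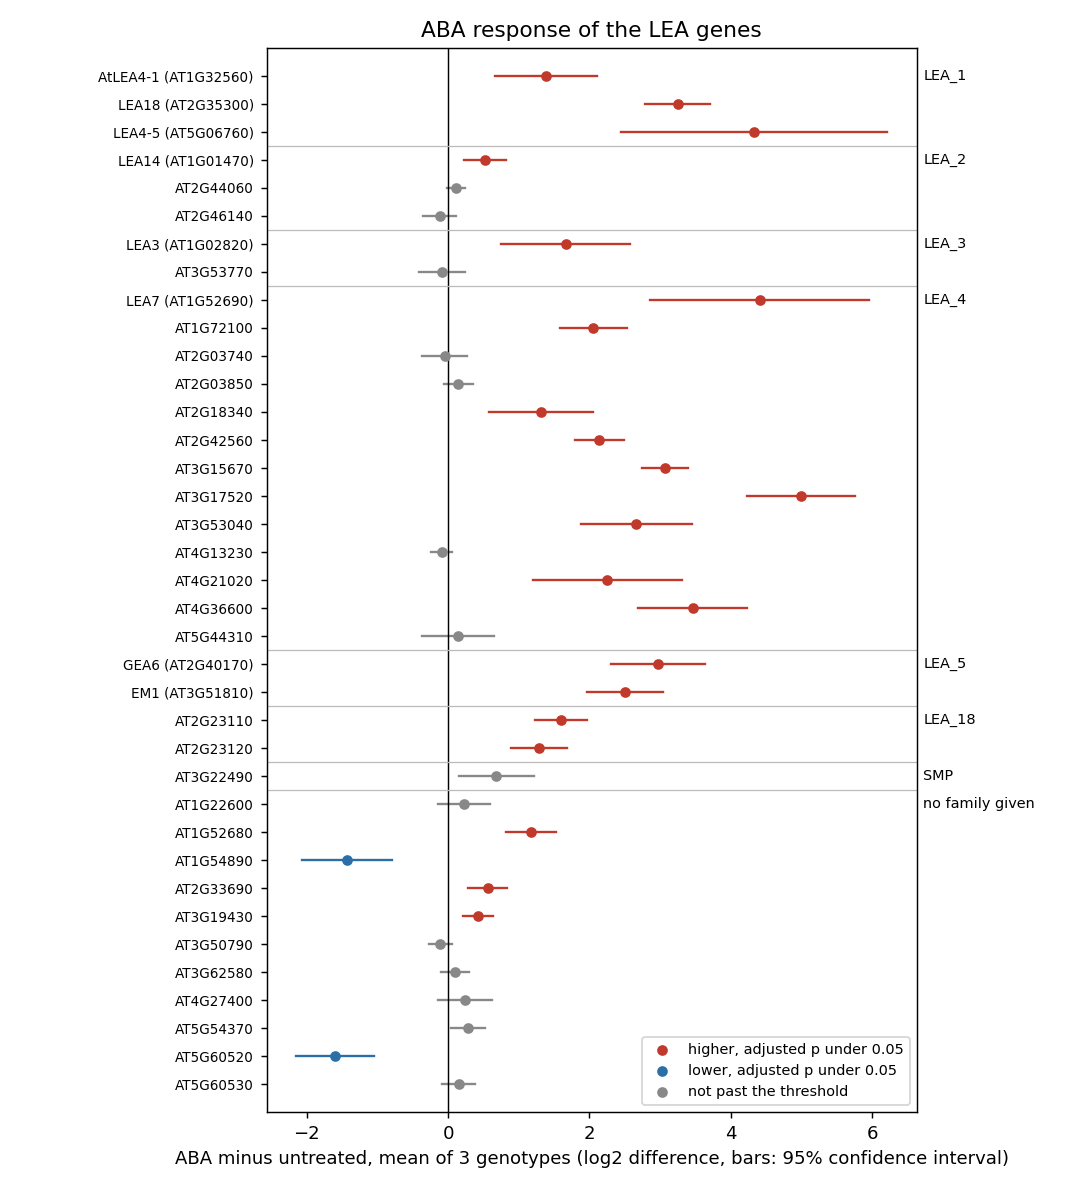
Log2 difference of ABA minus untreated arrays, as the mean of the 3 genotypes, for the 37 genes by family, with 95% confidence intervals from limma (6 arrays against 6). The intervals of LEA4-5 and LEA7 are the widest, and AT5G60520 and AT1G54890 alone lie wholly below 0 and past the threshold.

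Several of these genes ended near the highest value on any array, 15.95. Before ABA, 2 of the 37 genes had a mean over 15, as did 11.2% of all loci, and after ABA 7 did. The 5 that crossed this mark were LEA4-5, LEA7, AT3G15670, AT3G17520 and AT2G23120. Whether the top of the scale limited their log2 differences or the spread of their ABA arrays was not tested.

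Besides the LEA_18 pair, 2 pairs of these genes lie side by side. AT1G52680 and LEA7 lie 723 bp apart on opposite strands of chromosome 1, and both rose. AT5G60520 and AT5G60530 lie 861 bp apart on the minus strand of chromosome 5. AT5G60520 fell by 1.60, while AT5G60530 gave 0.15 (SE 0.10, limma adjusted p = 0.494), with 13.99 to 14.28 on ABA arrays and 13.72 to 14.24 on untreated arrays.

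Within single genotypes, with 2 arrays against 2 and the spread estimated over all 12, fewer genes passed. On arrays labelled gem1 6 of the 37 rose (1.18% of all loci), in the overexpressor 9 (1.19%) and in wild type 8 (1.06%), and none fell (0.273%, 0.365% and 0.306% of all loci). When only the 4 arrays of a genotype were fitted, 0 of the 37 and 0 of all loci passed by limma, with 21 (gem1), 19 (overexpressor) and 19 (wild type) of the 37 at an unadjusted p under 0.05, beside 2536, 2547 and 2842 of all loci. The median log2 differences were 0.78, 0.64 and 0.73 for gem1, the overexpressor and wild type, and -0.06, -0.01 and -0.02 over all loci. With the replicate block, 15 rose on arrays labelled gem1 (3.72%), 17 in the overexpressor (3.5%) and 16 in wild type (3.33%). Then AT5G60520 fell in the overexpressor and in wild type (2.35% and 2.69% of all loci fell) and none of the 37 on arrays labelled gem1 (1.83%). In fits that leave out 1 array without the block, the counts were 1 to 7 for gem1, 2 to 9 for the overexpressor and 1 to 8 for wild type. The lowest came without either ABA-treated gem1 array, without untreated overexpressor replicate 2 or either ABA-treated overexpressor array, and without ABA-treated wild-type replicate 2. With the block kept the counts were 5 to 16, 7 to 16 and 6 to 17.

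The genes that rose in each of the 3 genotypes were LEA18, AT2G42560, AT3G15670, AT3G17520 and EM1, 5 of the 37 against 0.849% of all loci. With the block they were 14 (2.56%). AT3G17520 gave log2 differences of 4.72 on arrays labelled gem1, 5.10 in the overexpressor and 5.15 in wild type (SE 0.57 each). LEA18 gave 3.10, 3.14 and 3.50 in the same order (SE 0.34 each), and AT3G15670 gave 2.85, 3.29 and 3.06 (SE 0.24 each). AT3G15670 passed in each genotype whichever of the 12 arrays was left out. EM1 passed in 2 of the 12 fits for gem1, 6 for the overexpressor and 3 for wild type, and LEA18, AT2G42560 and AT3G17520 in 8 to 11. GEA6 gave 2.41 on arrays labelled gem1 (limma adjusted p = 0.0703, or 0.0171 with the replicate block), 3.19 in the overexpressor (adjusted p = 0.0281) and 3.30 in wild type (adjusted p = 0.026). LEA4-5 gave 4.25 to 4.39 with an SE of 1.40 and passed in none of them.

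**Figure D3:**
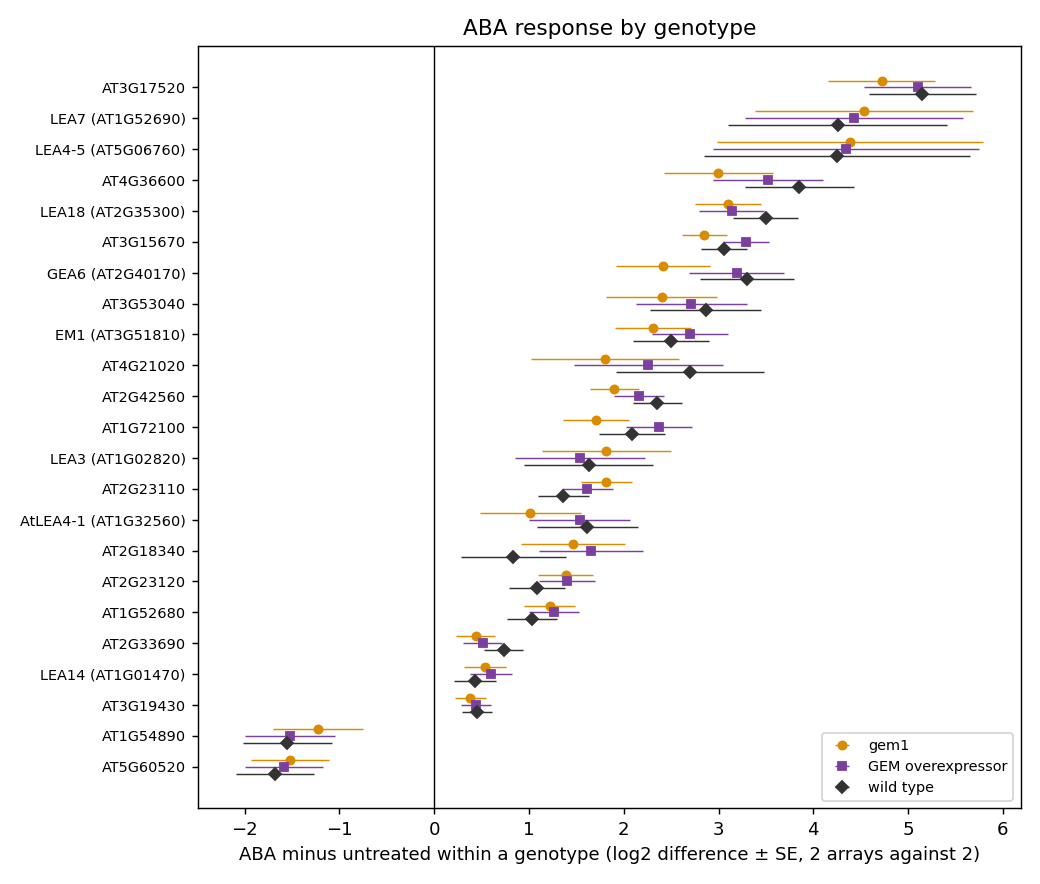
Log2 difference of ABA minus untreated within arrays labelled gem1 (circles), the GEM overexpressor (squares) and wild type (diamonds), 2 arrays against 2, for the 23 genes that rose or fell over the 3 genotypes, with standard errors from limma. The 3 marks of each gene lie on the same side of 0, and the bars of LEA4-5 and LEA7 are the longest.

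The study asks whether altered GEM levels change the seedling or its ABA response, and among the LEA genes no such difference passed. None of the 37 genes, and 0 of all loci (0%), differed by limma between arrays labelled gem1 and wild type or between the overexpressor and wild type, without or with ABA, also with the replicate block. GEM itself was among the loci that did not pass. Its feature 1 nevertheless read 15.73 to 15.81 in the overexpressor and 14.13 to 14.48 in wild type. The contrasts with wild type can thus miss a difference of that size. At an unadjusted p under 0.05 there was 1 of 37 (AT3G53770, -0.59 for gem1 minus wild type with ABA, SE 0.24) over these 4 contrasts. Over all 32627 loci the numbers at that level were 161 and 284 for gem1 without and with ABA, and 166 and 249 for the overexpressor. With the block there were 1 and 2 of the 37 for gem1 without and with ABA, and 0 and 1 for the overexpressor, beside 636, 1099, 632 and 799 of all loci in the same order. Log2 differences from wild type ran from -0.56 to 0.58 (gem1, untreated), -0.59 to 0.62 (gem1, ABA), -0.47 to 0.27 (overexpressor, untreated) and -0.42 to 0.65 (overexpressor, ABA).

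The difference of the ABA response from that of wild type was also tested, and none of the 37 genes passed for either line, with 0 at an unadjusted p under 0.05 (with the block 0 for gem1 and 1 for the overexpressor). Of all loci 0 passed, and 208 for gem1 and 179 for the overexpressor lay at an unadjusted p under 0.05 (886 and 662 with the block). The precision differs widely between genes. The ABA arrays of AT3G15670 (15.57 to 15.71) and LEA4-5 (15.73 to 15.81) lay near the highest value on any array, 15.95. Whether this narrows differences between lines was not tested. For AT3G15670 the response differed from wild type by -0.21 for gem1 (95% interval -0.99 to 0.58) and by 0.23 for the overexpressor (-0.55 to 1.02), on the log2 scale. For GEA6 it differed by -0.89 for gem1 (-2.52 to 0.75), and for LEA4-5 by 0.14 (-4.47 to 4.75). The last interval, from the fit without the replicate block, takes in the whole size of the response. A missed threshold thus does not show that the lines respond alike. The untreated arrays of LEA4-5 differed mainly between the replicate sets, with an SD of 0.29 within set 2 and 0.28 within set 1. Over all 6 untreated arrays its SD was 1.73, and the fit without the block counts that difference between sets as spread.

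A few arrays were often at the ends of their treatment for the 21 genes that rose. Untreated gem1 replicate 1 was the highest of the 6 untreated arrays in 11 of them, and in 21.8% of the 1826 loci that rose in all. Untreated wild-type replicate 1 was the lowest in 10, and in 7.5% of the 1826. ABA-treated wild-type replicate 2 was the highest of the ABA arrays in 10, and in 16.3% of the 1826. In AT3G17520 the untreated gem1 replicate 1 array read 11.92, and the other 5 untreated arrays 9.76 to 10.53. AT3G15670 read 13.25 there and 12.32 to 12.66 on the other 5, and AT3G53040 11.35 and 10.08 to 10.72. Without that array 19 of the 37 genes passed over the 3 genotypes, and 25 with the block kept.

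The replicate sets gave the same main picture and differed strongly in a few genes. Within set 2, with 3 ABA arrays against 3 untreated (1 per genotype, genotype in the fit), 21 of the 37 rose and 2 fell (9.5% and 11.3% of all loci). Within set 1, 21 rose and 1 fell (6.98% and 7.14%). The sets shared 20 rises (5.58% of all loci) and 1 fall, AT5G60520 (4.81%), and all 20 were among the 21 of the mean contrast. AT3G22490 rose in set 2 alone and AT2G33690 in set 1 alone, and the test of their difference between the sets was not passed.

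In 3 of the 37 genes ABA minus untreated was larger in set 2 than in set 1 by the test of the difference, and in none smaller (1.21% and 1.13% of all loci). LEA4-5 gave 5.90 in set 2 and 2.76 in set 1 on the log2 scale, a difference of 3.14 (SE 0.23, limma adjusted p = 0.000784). Its untreated arrays of set 2 read 9.56 (gem1), 10.08 (overexpressor) and 10.03 (wild type), and those of set 1 read 13.27, 12.71 and 13.07, while all 6 ABA arrays lay within 15.73 to 15.81. The sets thus differed without ABA and met near the top of the scale with it. LEA7 gave 5.66 in set 2 and 3.16 in set 1 (difference 2.50, SE 0.47, limma adjusted p = 0.0325). Its untreated arrays of set 2 read 9.27, 10.46 and 10.44 in the same order of genotypes, and those of set 1 read 12.98, 12.03 and 12.42. LEA14 gave 0.76 in set 2 and 0.29 in set 1 (difference 0.47, SE 0.09, adjusted p = 0.0402), with untreated means of 14.97 in set 2 and 15.44 in set 1. In all 3 genes every ABA array lay between 15.61 and 15.81, so the difference between the sets is that of their untreated arrays, and no difference in the size of the response is read from it. The call of LEA4-5 stayed past the threshold whichever array was left out, that of LEA7 in 4 of the 12 fits and that of LEA14 in 1.

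**Figure D4:**
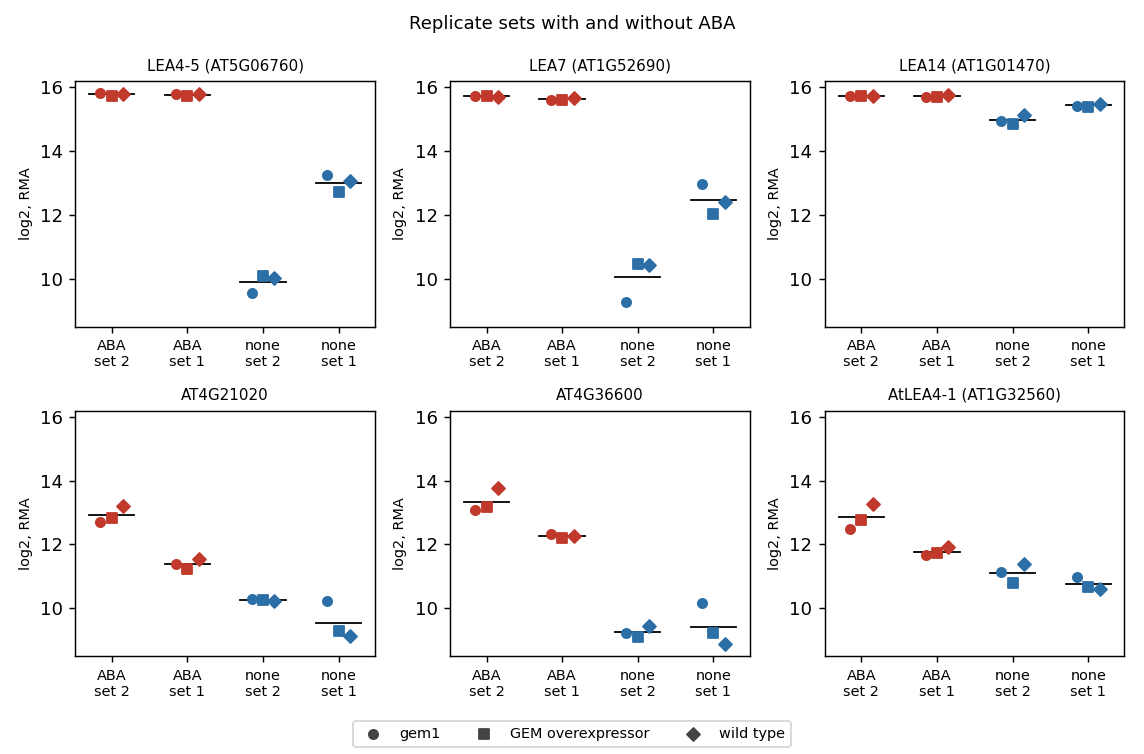
Expression (log2, RMA) of 6 genes on ABA arrays of replicate sets 2 and 1 and on untreated arrays of sets 2 and 1 ("none"), with 1 mark per genotype and bars at the means of 3 arrays. LEA4-5 and LEA7 differ between the sets without ABA and meet near 15.7 after ABA, while AT4G21020, AT4G36600 and AtLEA4-1 stand higher in set 2 after ABA.

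Set 2 minus set 1 was tested in each treatment. Without ABA, 3 of the 37 genes were higher in set 2 and 6 lower (22.7% and 18% of all loci). The lower ones were LEA4-5 (-3.13), LEA7 (-2.42), AT2G23120 (-0.57), LEA14 (-0.47), AT2G46140 (-0.25) and AT3G62580 (-0.25), and the higher ones LEA3 (1.27), AT2G18340 (0.77) and AT4G21020 (0.72). With ABA, 7 were higher in set 2 and 1 lower (16.4% and 12.8% of all loci). These were AT4G21020 (1.53), AT4G36600 (1.07), AtLEA4-1 (1.07), AT3G53040 (1.00), AT2G18340 (0.85), AT3G22490 (0.74) and AT5G44310 (0.59), with AT2G33690 (-0.36) lower. Leaving out 1 array moved these counts to 4 to 12 without ABA, lowest without untreated wild-type replicate 1, and to 2 to 11 with ABA, lowest without ABA-treated overexpressor replicate 1. The labels name the replicates as separate biological ones and give nothing more on how the sets differ.

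Seed storage protein and oleosin genes are markers of seed tissue or of embryo-like expression. Of 13 such genes 7 were higher in set 2 than in set 1 with ABA and none lower (16.4% and 12.8% of all loci), and 4 were higher and 1 lower without ABA (22.7% and 18%). Their mean log2 value was 12.19 on ABA-treated wild-type replicate 2, and 11.06 and 10.78 on the gem1 and overexpressor arrays of the same set and treatment. It was 9.96 to 10.28 on the ABA arrays of set 1, 10.33 to 10.86 on untreated arrays of set 2 and 9.83 to 10.40 on untreated arrays of set 1. CRC, a cruciferin, read 15.11 on ABA-treated wild-type replicate 2 and 8.85 on untreated wild-type replicate 1, the ends of its range. None of the 13 passed after ABA over the 3 genotypes (median 0.40, 2 at an unadjusted p under 0.05, 1 past the threshold with the block). The median ABA change of the 13 was 0.03 in set 1 and 0.36 in set 2. In each set 21 of the 37 LEA genes rose (6.98% and 9.5% of all loci). Any link of the 13 genes to the ABA response of the LEA genes or to the differences between sets was not tested.

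A list of seed maturation regulators, the ABFs among them, moved in part. Of these 21 genes 6 rose and none fell after ABA (5.6% and 5.2% of all loci), with a median of 0.06. With the block 7 rose and 2 fell (9.27% and 12.9% of all loci). Those that rose without the block were the bZIP factors ABI5 (2.53, SE 0.22), ABF2 (1.19), ABF3 (1.12), ABF4 (0.82), ABF1 (0.35) and BZIP25 (0.31). LEC1, LEC2, FUS3 and ABI4 were not among them. ABI3, the B3 factor that drives LEA genes in the seed, stood at 9.41 on ABA arrays and 9.41 on untreated arrays (difference 0.00, SE 0.21). Among the 12 dehydrin and COR15 genes that the rule leaves out, 5 rose (median 0.72, beside 5.6% of all loci that rose), RAB18 by 2.34 and XERO1 by 1.35. Among 12 further LEA genes whose annotation lacks the phrase, 2 rose (median 0.32, beside 5.6% of all loci that rose). AT3G02480 rose by 3.70 (SE 0.11) and ECP63, a LEA_4 gene, by 3.05 (SE 0.11). With the block 5 of these 12 rose (9.27% of all loci).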

How the data were processed

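The authors deposited 1 log2 value per transcript feature and array, processed by RMA according to the submitters' processing notes, the log2 scale being read from the values. The series-wide table was identical. RMA equalises arrays, so a change in total RNA would not be seen. Each of the 37 genes was read by 3 or 4 probes.

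One feature per locus was used, the one with the highest mean over 12 arrays, and all 32627 loci were fitted with limma 3.58.1 in R 4.3.3 (lmFit, eBayes). The first fit used 6 group means with 10 contrasts, the second treatment by replicate set with genotype as a covariate and 5 contrasts, each with 6 residual degrees of freedom. Two-sided p-values were adjusted by Benjamini-Hochberg over the loci of a contrast, with a threshold of 0.05. The first fit was tested on simulated data with known changes, and the second for false calls on simulated data without any difference between set responses. With 2 arrays a group, array number limits the precision.

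The replicate numbers were taken to pair samples, since deviations from group means correlated in all 15 pairs of groups (0.436 to 0.882, median 0.709, over all loci, and 0.0879 to 0.842, median 0.467, over the 37 genes) and the labels give separate biological replicates. The alternatives were that block, the compared groups only, a variance trend, a filter on dim loci, quantile normalization, the mean of features, the whole-series table and each array left out, with leave-out fits keeping the block added after seeing the data. Genes and lists were chosen with earlier results of these data known. Named genes were those past the threshold after ABA, the largest changes per family and the extremes of level and of differences between lines and sets. Symbols came from the array annotation and the gene table of TAIR10.1. Data were read with the R packages data.table (version 1.17.8) and jsonlite (2.0.0).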

Additional observations from a re-analysis of the deposited data

How the results depend on the processing

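The 23 calls over the 3 genotypes (21 higher, 2 lower) kept their direction and their side of the threshold with the replicate block, a variance trend, quantile normalization again, the mean of all features and the whole-series table. Without the dimmest 30% of loci 19 genes passed, fewer loci being tested, and the median difference, over the genes this filter left, was 1.39. Leaving out 1 array gave 16 to 22, and 22 to 25 with the block kept. In the single genotypes the replicate block gave 15 (gem1), 18 (overexpressor) and 17 (wild type) calls in either direction, against 6, 9 and 8 without it, and 0 in each when only the 4 arrays compared were fitted, with 2 residual degrees of freedom. Leaving out 1 array gave 1 to 7, 2 to 9 and 1 to 8 there, and 5 to 16, 7 to 16 and 6 to 17 with the block kept, among them 13 for gem1 without either untreated wild-type array, 14 for gem1 without either ABA-treated wild-type array, 14 for the overexpressor without either ABA-treated gem1 array and 14 for wild type without either untreated gem1 array. It gave 20 to 22 for set 1, 22 to 24 for set 2, 1 to 3 for the difference of the set responses, 4 to 12 for set 2 minus set 1 without ABA and 2 to 11 with ABA. The contrasts with wild type gave 0 in every fit run, with or without the block. Quantile normalization ended 3 calls of single genes and the filter on dim loci 1, no call turned its sign in any of these fits, and the causes were not tested. Within a genotype the standard error of the ABA difference was 1.40 for LEA4-5 and 0.24 for AT3G15670 on the log2 scale.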

Other observations

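Some LEA genes outside the annotated phrase gave values that the main comparisons do not use. M17 gave a log2 difference of 0.87 after ABA over the 3 genotypes (SE 0.54, limma adjusted p = 0.445, or 0.0179 with the replicate block), and DI21 gave 0.56 (SE 0.19, adjusted p = 0.11, or 0.0176 with the block). RAB28, an SMP gene like AT3G22490, gave 0.36 (adjusted p = 0.0562, or 0.0234 with the block), and ATECP31, of the same family, 0.28 (adjusted p = 0.566). SAG21, the LEA_3 gene known from senescence and oxidative stress, stood at a mean of 15.51 on ABA arrays and 15.25 on untreated arrays (difference 0.26, SE 0.15, adjusted p = 0.398).

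A second transcript feature was on the array for 2 of the 37 genes. That of AT2G44060 gave 0.16 (SE 0.05, limma adjusted p = 0.112), and that of AT5G44310 gave 0.18 (SE 0.14, adjusted p = 0.597), beside 0.11 and 0.15 for the features used. The oleosin gene OLEO1 read 13.62 on ABA-treated wild-type replicate 2 and 10.61 on ABA-treated wild-type replicate 1, and DOG1, a regulator of seed dormancy, gave 0.78 after ABA (SE 0.48, adjusted p = 0.452, or 0.0291 with the block).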
